A study of Mus musculus with 24 samples.

Results

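The expression of 8 genes of peroxisomal lipid oxidation was followed through the adipogenic differentiation of white and brown fat precursors, with and without EGCG: Phyh, Hacl1, Abcd2, Abcd3, Ehhadh, Acaa1b, Decr2 and Pex11a. They were 8 of the 37310 genes in the deposited tables, and all 8 passed the filter for low expression. They were chosen by their place in the pathway after Phyh had been seen to lose far more with EGCG in brown than in white cells on day 8. Every comparison that holds a day 8 value of Phyh is therefore a description here, with no test and no place in the counts, and the question put to the data was whether the rest of the pathway followed it. All 8 are protein-coding genes.

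Stromal vascular cells, the mixed fraction of fat tissue that holds the preadipocytes, came from C57BL/6 mice aged 6 weeks, from their inguinal white fat (WAT) and their interscapular brown fat (BAT). Both depots were carried through the same induction with insulin, dexamethasone and isobutylmethylxanthine, followed by a differentiation medium with insulin and T3. The EGCG groups received EGCG, the usual abbreviation of epigallocatechin gallate, a catechin of green tea, and the control groups received DMSO. RNA was taken on day 4 and day 8, which gives 8 groups of 3 libraries, 24 in all. No dose of EGCG is given in the sources used here, and nothing says whether the replicates came from separate animals or cultures, so p-values measure the spread between libraries, which may be technical. The cells were a whole fraction and not a sorted one, and in such bulk samples fewer cells of a type and less RNA per cell cannot be told apart.

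Peroxisomes are small organelles that shorten the fatty acids which mitochondria handle poorly, among them very long-chain and branched-chain ones. Acyl chains enter through half-transporters of the ABCD family, branched chains such as phytanic acid first lose a carbon by alpha-oxidation, and the chains are then shortened by peroxisomal beta-oxidation. Brown fat is rich in peroxisomes, and many genes of the pathway are known targets of the PPAR nuclear receptors. Phyh encodes phytanoyl-CoA hydroxylase, the first enzyme of alpha-oxidation, and Hacl1 the lyase that acts after it. Ehhadh encodes the bifunctional enzyme of beta-oxidation, Acaa1b a thiolase of its last step, and Decr2 the peroxisomal 2,4-dienoyl-CoA reductase needed for polyunsaturated chains. Abcd2 and Abcd3 are the transporters, and Pex11a takes part in peroxisome elongation and division.

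The genes lie on separate chromosomes of the mouse genome build NCBIM37 (mm9), by the GENCODE vM1 annotation. Phyh is at chr2:4840065-4859776 on the plus strand and the others are on the minus strand: Hacl1 at chr14:32366091-32454472, Abcd2 at chr15:90976315-91022238, Abcd3 at chr3:121461827-121518220, Ehhadh at chr16:21761360-21787917, Acaa1b at chr9:119057141-119066211, Decr2 at chr17:26218156-26227274 and Pex11a at chr7:86880843-86888017. Plin1, a lipid droplet gene, lies 3180 bases from Pex11a on the same strand. Hacl1 shares 307 of its exonic bases with its neighbours Colq and Btd, Acaa1b shares 224 with Dlec1 and Abcd3 shares 22 with Gm17676, and reads from these stretches are uncertain because use of strand in the counting is not given. Acaa1b is also 93.0% identical to its paralog Acaa1a over 1633 aligned transcript bases, with 1 identical run of 327 bases, so its low values may hold reads of the much more abundant Acaa1a.

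The promoters of 4 of the genes are shown because they hold the different responses described below, from genes that lost expression with EGCG (Phyh, Pex11a and Ehhadh) to one that was higher with it (Decr2). The windows run 250 bases before to 50 bases after the start site, on the gene's own strand, and come from RefSeq on build GRCm38.p6. The capitals mark the nuclear receptor half-site AGGTCA and the GC box GGGCGG on either strand.
Phyh, chr2:4918746-4919045, plus strand: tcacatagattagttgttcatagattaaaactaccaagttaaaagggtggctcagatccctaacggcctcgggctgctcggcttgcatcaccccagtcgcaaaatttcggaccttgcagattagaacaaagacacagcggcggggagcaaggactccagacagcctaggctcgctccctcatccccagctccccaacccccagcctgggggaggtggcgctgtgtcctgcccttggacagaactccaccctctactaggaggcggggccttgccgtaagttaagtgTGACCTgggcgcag
Pex11a, chr7:79743082-79743381, minus strand: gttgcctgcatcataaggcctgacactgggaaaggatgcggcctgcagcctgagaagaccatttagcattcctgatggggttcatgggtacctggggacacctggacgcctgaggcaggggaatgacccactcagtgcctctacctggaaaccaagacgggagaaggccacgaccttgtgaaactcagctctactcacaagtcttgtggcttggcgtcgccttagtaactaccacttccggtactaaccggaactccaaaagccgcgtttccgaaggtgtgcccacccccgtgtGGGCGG
Ehhadh, chr16:21787785-21788084, minus strand: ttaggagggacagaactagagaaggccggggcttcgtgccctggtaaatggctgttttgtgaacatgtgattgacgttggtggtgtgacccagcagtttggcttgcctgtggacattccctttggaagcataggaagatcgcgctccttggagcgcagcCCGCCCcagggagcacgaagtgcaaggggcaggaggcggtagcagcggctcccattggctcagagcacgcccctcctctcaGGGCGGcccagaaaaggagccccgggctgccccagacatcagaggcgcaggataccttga
Decr2, chr17:26090115-26090414, minus strand: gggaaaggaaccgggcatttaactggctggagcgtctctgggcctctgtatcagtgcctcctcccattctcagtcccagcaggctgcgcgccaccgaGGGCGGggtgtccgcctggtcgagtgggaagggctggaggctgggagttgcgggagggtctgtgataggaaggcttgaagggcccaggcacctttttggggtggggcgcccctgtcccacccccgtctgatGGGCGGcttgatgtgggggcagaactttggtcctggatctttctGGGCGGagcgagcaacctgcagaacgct

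Windows were found for 7 of the 8 genes, with 2 for Abcd3, and none was at hand for Abcd2. The half-site AGGTCA stood once in the Phyh window, on the opposite strand from base 287 of the window, and in no other window of the genes, against 16.3% of all 32851 promoter windows. A direct repeat of 2 such sites, AGGNCANAGGNCA, which contains the half-site as one of its forms, was in none of them and in 0.381% of all windows. The GC box GGGCGG was in 35.7% of all windows and was found 2 times in Ehhadh, 1 time in Pex11a, 1 time in Hacl1 and 3 times in Decr2. These matches describe letters within 300 bases and do not show binding.

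Expression was measured by RNA sequencing and is given as FPKM, reads scaled to gene length and library size, a scale on which levels of different genes can be compared. Replicates 1 and 2 of all groups stood in 1 table, with 39452696 to 52893848 reads a library, and replicate 3 stood in a second table that was scaled separately, with 16392420 to 41675643 reads. Tests used the 16 libraries of the first table on log2(FPKM + 1), with limma and Benjamini-Hochberg adjustment over 14095 genes, and the calls below are those with an adjusted p under 0.05. Changes below are differences on that scale with the SE of the fit, which understate the change of weakly expressed genes, and replicate 3 is given by value. In the third library of WAT cells with EGCG on day 8, 5 genes took 61.01% of all reads, so its values of other genes are low as deposited; they are also given after rescaling by 2.56 without those 5 genes. The labelled cell types were checked first. The 10 adipocyte markers summed to 6058 to 6740 FPKM in WAT controls and 11063 to 11150 in BAT controls on day 8. Ucp1, the defining gene of brown fat thermogenesis, was at 6.56 ± 0.58 FPKM (SD, n = 2) in BAT controls on day 8, and it was listed at 0 in both WAT controls and in both BAT libraries with EGCG of that day. The 4 brown identity genes summed to 39.6 to 41.7 FPKM in BAT and 16.8 to 18.2 in WAT controls on day 8, and the 4 white ones to 17.8 to 18.7 and 46.3 to 52.5.

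Phyh was the gene of the 8 with the widest span in FPKM. On day 8 it stood at 91.07 and 89.86 FPKM in the BAT controls and at 10.38 and 10.68 with EGCG, with 91.81 and 13.25 in replicate 3. In WAT cells of the same day it stood at 27.54 and 25.25 in the controls and at 15.68 and 15.60 with EGCG. The third WAT pair gave 25.97 in the control and 6.99 with EGCG, or 17.93 after rescaling. The control and EGCG libraries did not overlap in either depot, and the BAT controls lay far above every other group. On the ratio of means the loss was 8.59-fold in BAT and 1.69-fold in WAT. On the log2 scale the change was -2.99 in BAT and -0.72 in WAT, a difference of -2.27, which is the pattern the genes were chosen by.

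**Figure D1:**
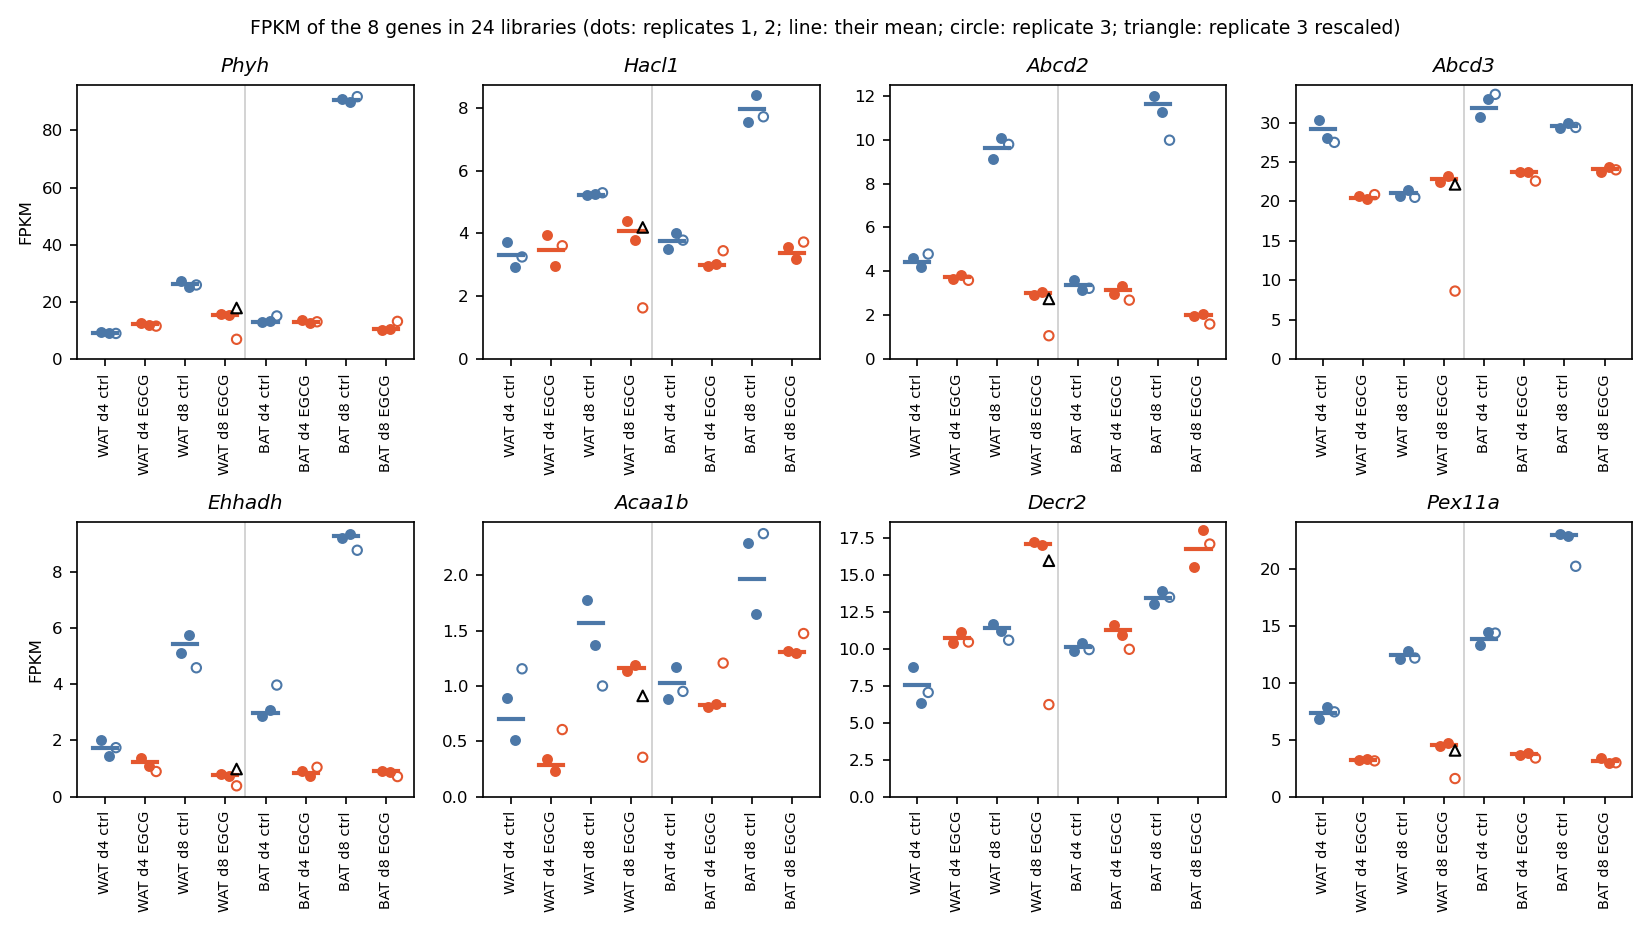
FPKM (linear axis from 0) of the 8 genes in each of the 24 libraries, by depot, day and treatment. Dots are replicates 1 and 2, lines their mean, open circles replicate 3 as deposited and the triangle its rescaled value for WAT day 8 EGCG. In Phyh, Hacl1, Abcd2, Ehhadh and Pex11a the BAT day 8 controls are the highest group, and Decr2 is highest with EGCG on day 8.

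The high BAT control level of Phyh had arisen between the days. On day 4 the BAT controls held 13.00 and 13.31 FPKM and the WAT controls 9.63 and 9.05, so that the day 8 mean was 6.88-fold that of day 4 in BAT controls (log2 2.69) and 2.83-fold in WAT controls (log2 1.40). With EGCG the day 4 levels were 13.56 and 12.62 in BAT and 12.85 and 12.04 in WAT. With EGCG the difference from day 4 to day 8 was -0.29 in BAT cells and 0.31 in WAT cells. In replicate 3 it was 0.015 in BAT cells (13.11 and 13.25 FPKM) and, after rescaling, 0.59 in WAT cells. All 4 EGCG groups thus lay within 10.38 to 15.68 FPKM in the first table, beside 9.05 to 13.31 in the day 4 controls of both depots. On day 4, where the choice of Phyh used no value, Phyh was higher with EGCG in WAT (log2 0.38 ± 0.05, adjusted p = 0.000115), the change in BAT was -0.0073 ± 0.05 (adjusted p = 0.927), and the difference between depots was -0.39 ± 0.08 (adjusted p = 0.00337).

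Hacl1, which acts after Phyh in alpha-oxidation, went the same way at a lower level. It stood at 7.55 and 8.40 FPKM in BAT controls on day 8 and at 3.57 and 3.20 with EGCG, with 7.71 and 3.73 in replicate 3. In WAT the values were 5.21 and 5.26 in controls and 4.39 and 3.79 with EGCG, with 5.29 and, after rescaling, 4.19 in replicate 3. The groups did not overlap in either depot. The fall was 2.35-fold in BAT (log2 -1.03 ± 0.12, adjusted p = 6.32e-06) and 1.28-fold in WAT (log2 -0.30 ± 0.12, adjusted p = 0.0422). The WAT call was lost at a pseudocount of 0.1 (adjusted p = 0.0509), with no filter on low values (adjusted p = 0.0903), and without WAT control replicate 1 (adjusted p = 0.0978), control replicate 2 (adjusted p = 0.115) or EGCG replicate 2 (adjusted p = 0.230). The difference between depots was -0.74 ± 0.16 (adjusted p = 0.00422). On day 4 neither depot gave a call, with 0.04 ± 0.12 in WAT (adjusted p = 0.776) and -0.25 ± 0.12 in BAT (adjusted p = 0.101). The BAT value was called under quantile normalisation (-0.30, adjusted p = 0.0457) and with both tables and a replicate block without the third WAT library with EGCG (-0.20, adjusted p = 0.0422).

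The transporters differed from each other. Abcd2, which carries very long-chain and polyunsaturated acyl-CoA, held 11.96 and 11.24 FPKM in BAT controls on day 8 and 1.98 and 2.07 with EGCG, with 9.97 and 1.60 in replicate 3. In WAT it held 9.13 and 10.08 in controls and 2.94 and 3.05 with EGCG, with 9.78 and, rescaled, 2.75 in replicate 3. Controls were above EGCG in every pair of libraries. The fall was 5.74-fold in BAT (log2 -2.06 ± 0.08, adjusted p = 5.12e-10) and 3.21-fold in WAT (log2 -1.41 ± 0.08, adjusted p = 3.07e-08), a difference of -0.65 ± 0.11 (adjusted p = 0.000672).

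On day 4 the changes of Abcd2 were smaller. It stood at 4.63 and 4.22 against 3.65 and 3.85 FPKM in WAT (control, then EGCG; -0.19 ± 0.08, adjusted p = 0.0551) and at 3.63 and 3.16 against 2.96 and 3.34 in BAT (adjusted p = 0.406). The WAT value was not called as fitted, but it was called as a fall under median-ratio scaling (-0.30, adjusted p = 0.00656), quantile normalisation (-0.29, adjusted p = 0.0102), voom (-0.24, adjusted p = 0.0352) and both tables without the third WAT library with EGCG (-0.24, adjusted p = 0.00801).

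Abcd3, also called PMP70, the abundant transporter of the peroxisomal membrane, had the smallest range relative to its level. In BAT on day 8 it held 29.29 and 29.93 FPKM in controls and 23.72 and 24.41 with EGCG, with 29.37 and 24.01 in replicate 3. In WAT it held 20.65 and 21.41 in controls and 22.50 and 23.26 with EGCG, with 20.52 and, rescaled, 22.17 in replicate 3. The BAT fall was 1.23-fold (log2 -0.29 ± 0.05, adjusted p = 0.000151). The WAT value of 0.12 ± 0.05 passed the threshold as a rise (adjusted p = 0.0481), but it turned to -0.08 under median-ratio scaling (adjusted p = 0.193) and to -0.05 under quantile normalisation (adjusted p = 0.348), so its direction depends on the scaling, and it lost the call without any 1 of its 4 libraries (adjusted p = 0.0505 to 0.208). The difference between depots, which scaling touches less, was -0.40 ± 0.07 (adjusted p = 0.000630). On day 4 Abcd3 fell in both depots, by 0.49 in WAT (adjusted p = 5.33e-06) and by 0.41 in BAT (adjusted p = 2.20e-05).

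Ehhadh fell steeply with EGCG in both depots. In BAT on day 8 it held 9.19 and 9.32 FPKM in controls and 0.91 and 0.88 with EGCG, with 8.76 and 0.71 in replicate 3. In WAT it held 5.10 and 5.74 in controls and 0.79 and 0.71 with EGCG, with 4.58 and, rescaled, 0.98 in replicate 3. The ratio of means was 10.3-fold in BAT (log2 -2.43 ± 0.11, adjusted p = 1.75e-09) and 7.20-fold in WAT (log2 -1.87 ± 0.11, adjusted p = 4.03e-08). The difference between depots, -0.56 ± 0.15, was called at a pseudocount of 1 (adjusted p = 0.0114) but not at 0.1 (-0.53, adjusted p = 0.0967) or on reads recovered from the FPKM (-0.54, adjusted p = 0.127).

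The depots were further apart in Ehhadh on day 4. It held 2.87 and 3.09 FPKM in BAT controls and 0.92 and 0.74 with EGCG, against 2.01 and 1.44 and then 1.37 and 1.09 in WAT. The day 4 change was -1.12 ± 0.11 in BAT (adjusted p = 4.26e-06) and -0.28 ± 0.11 in WAT (adjusted p = 0.0404), a difference of -0.84 ± 0.15 (adjusted p = 0.00189).

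Acaa1b was the weakest gene of the 8, with 18 to 180 reads a library. On day 8 it held 2.29 and 1.65 FPKM in BAT controls and 1.31 and 1.30 with EGCG, and 1.77 and 1.37 in WAT controls against 1.14 and 1.19 with EGCG. In replicate 3 the values were 2.38 and 1.47 in BAT, and 1.0 and, rescaled, 0.91 in WAT. The BAT fall of 0.36 ± 0.14 was called (adjusted p = 0.0339) but was lost at a pseudocount of 0.1 (adjusted p = 0.0802), with no filter on low values (adjusted p = 0.0639), with the spread of its own groups alone (adjusted p = 0.0547), and without control replicate 1 (-0.20, adjusted p = 0.274), EGCG replicate 1 (adjusted p = 0.0934) or EGCG replicate 2 (adjusted p = 0.102). The WAT value was -0.25 ± 0.14 (adjusted p = 0.138), and it was called under median-ratio scaling (-0.37, adjusted p = 0.0399). The difference between depots was -0.11 with a 95% interval from -0.54 to 0.31 (adjusted p = 0.687). Acaa1a, its abundant paralog, is given with the other enzymes below.

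Decr2 stood at its highest in both depots with EGCG on day 8. In WAT it held 11.66 and 11.20 FPKM in controls and 17.25 and 17.05 with EGCG, with 10.59 and, rescaled, 15.98 in replicate 3. In BAT it held 13.03 and 13.90 in controls and 15.52 and 18.03 with EGCG, with 13.51 and 17.11 in replicate 3. With replicate 3 rescaled, EGCG libraries were above the controls in both depots. As deposited, the third WAT library with EGCG held 6.23 FPKM, below the WAT controls. The WAT rise was 1.50-fold (log2 0.55 ± 0.11, adjusted p = 0.000958), and under median-ratio scaling it was 0.36 (adjusted p = 0.0157). The BAT value of 0.29 ± 0.11 was called as fitted (adjusted p = 0.0296) but became 0.11 under median-ratio scaling (adjusted p = 0.376) and 0.16 under quantile normalisation (adjusted p = 0.209). It was also lost with no filter on low values (adjusted p = 0.0648) and without control replicate 1 (adjusted p = 0.133), control replicate 2 (adjusted p = 0.0514) or EGCG replicate 2 (0.19, adjusted p = 0.215). The difference between depots was -0.25 with a 95% interval from -0.59 to 0.09 (adjusted p = 0.228). On day 4 Decr2 rose in WAT by 0.47 ± 0.11 (adjusted p = 0.00363) and the BAT value was 0.14 ± 0.11 (adjusted p = 0.316).

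Pex11a had the largest depot difference of the genes that had not served for the choice. In BAT on day 8 it held 23.12 and 22.93 FPKM in controls and 3.38 and 2.93 with EGCG, with 20.28 and 2.97 in replicate 3. In WAT it held 12.08 and 12.81 in controls and 4.43 and 4.72 with EGCG, with 12.20 and, rescaled, 4.06 in replicate 3. The groups were far apart in both depots. The fall was 7.30-fold in BAT (log2 -2.53 ± 0.07, adjusted p = 7.18e-11) and 2.72-fold in WAT (log2 -1.27 ± 0.07, adjusted p = 4.67e-08), a difference of -1.26 ± 0.10 (adjusted p = 4.69e-06).

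Unlike Phyh, Pex11a was already low on day 4. It held 13.32 and 14.50 FPKM in BAT controls and 3.66 and 3.86 with EGCG, and 6.87 and 7.87 in WAT controls against 3.24 and 3.27 with EGCG. The falls were 1.65 ± 0.07 in BAT (adjusted p = 1.51e-08) and 0.97 ± 0.07 in WAT (adjusted p = 7.49e-07) on the log2 scale, and the depots differed by -0.67 ± 0.10 (adjusted p = 0.000696).

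**Figure D2:**
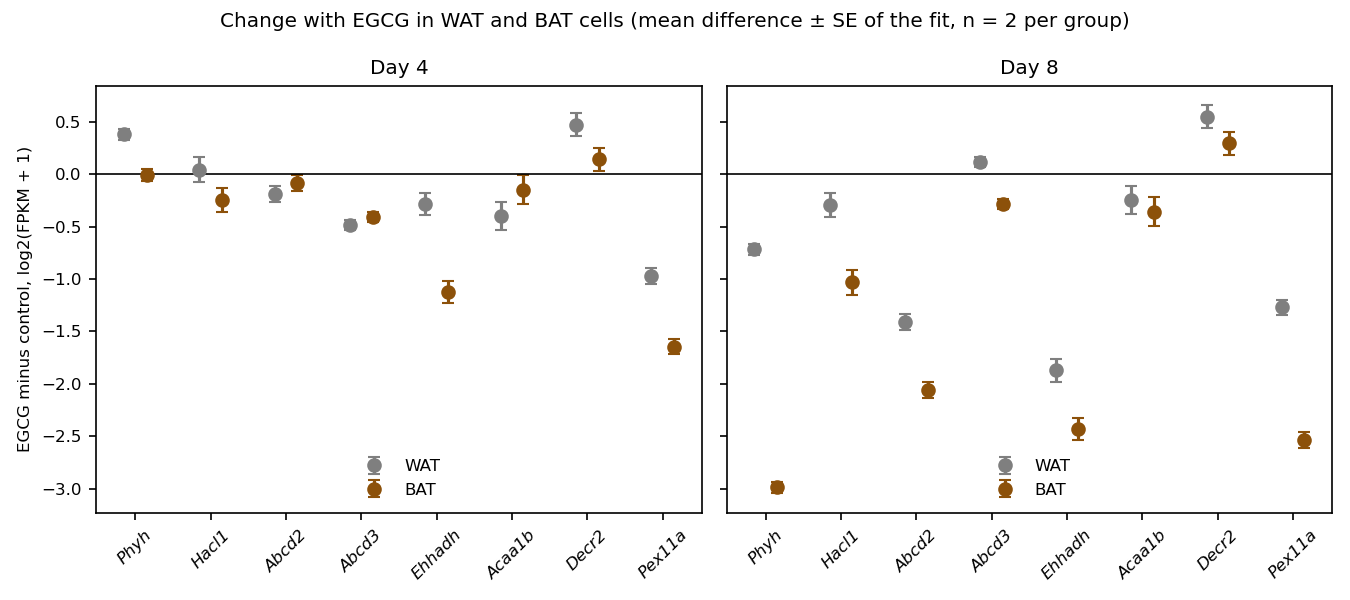
EGCG minus control on log2(FPKM + 1) for the 8 genes on day 4 and day 8, in WAT (grey) and BAT (brown); points are mean differences of 2 against 2 libraries and bars the SE of the fit. On day 8 the BAT point lies below the WAT point for every gene, by 0.11 for Acaa1b up to 2.27 for Phyh.

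Counted over the 7 genes other than Phyh, EGCG on day 8 lowered 6 and raised 1 in BAT (Decr2), and lowered 4 and raised 2 in WAT (Decr2 and Abcd3). Acaa1b in WAT was the remaining 1. Of all genes tested, 26.1% were called lower and 46.5% higher in BAT, and 18.9% lower and 44.7% higher in WAT. With median-ratio scaling the counts were 6 lower and 0 higher in BAT and 5 lower and 1 higher in WAT. That scaling moved the median change of all genes from 0.17 to 0.02 in BAT and from 0.17 to 0.01 in WAT, and the higher share among called genes from 64.0% to 51.8% and from 70.3% to 51.2%. For the difference between depots, 5 of the 7 were lower in BAT and 0 higher, against 19.7% lower and 19.4% higher among all genes, and the count was also 5 lower and 0 higher under median-ratio scaling. The median difference of the 7 was -0.56 and that of all genes 0.01. The 5 ranked from Pex11a (-1.26) through Hacl1 (-0.74), Abcd2 (-0.65) and Ehhadh (-0.56) to Abcd3 (-0.40), and none came near the -2.27 of Phyh. Neighbours in this order from Hacl1 to Ehhadh lay within 1 SE of each other. In replicate 3, as deposited, 2 of the 7 had a difference of the same sign, and 7 of 7 had it once the third WAT library with EGCG was rescaled.

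On day 4 all 8 genes could be counted. EGCG lowered 4 and raised 2 in WAT (Pex11a, Abcd3, Acaa1b and Ehhadh, then Decr2 and Phyh), against 19.3% and 34.4% of all genes. Acaa1b, at -0.40 ± 0.14 (adjusted p = 0.0280), lost its call without control replicate 1 (-0.24, adjusted p = 0.236), EGCG replicate 1 (adjusted p = 0.0517) or EGCG replicate 2 (adjusted p = 0.132), and Ehhadh without control replicate 1 (-0.13, adjusted p = 0.355) or EGCG replicate 2 (-0.19, adjusted p = 0.236). Over all alternatives the WAT call was lost in 6 of 13 for Acaa1b and in 5 of 14 for Ehhadh. In BAT EGCG lowered 3 (Pex11a, Ehhadh and Abcd3) and raised 0, against 20.6% and 27.9%. The depots differed for 3 genes, all lower in BAT (Ehhadh, Pex11a and Phyh), against 16.1% lower and 12.0% higher among all genes. Decr2 was added to them without WAT control replicate 1 (-0.54, adjusted p = 0.00696), against -0.33 as fitted. Median-ratio scaling moved the all-gene median in WAT from 0.09 to -0.02 and the higher share among called genes from 64.1% to 44.7%, and for the depot difference it moved that share from 42.7% to 61.5%. Under it the same 3 counts were 5 lower and 2 higher in WAT, 3 lower and 0 higher in BAT, and 3 lower and 0 higher for the difference. The unadjusted direction held in replicate 3 for 8 of 8 genes in WAT and 7 of 8 in BAT, where Acaa1b went the other way, and for 7 of 8 in the depot difference, where Abcd3 did.

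Without EGCG most of the genes rose between day 4 and day 8. Of the 7 genes other than Phyh, 6 rose in WAT controls and Abcd3 fell by 0.45 (adjusted p = 6.29e-06), against 27.7% of all genes higher and 33.2% lower. In BAT controls 6 rose and Abcd3 gave -0.10 ± 0.05 (adjusted p = 0.0737), against 28.7% higher and 40.4% lower. Abcd3 was called there without day 4 control replicate 1 (-0.15, adjusted p = 0.0310). Median-ratio scaling moved the all-gene median in BAT controls from -0.10 to 0.02 and the share higher among called genes from 41.5% to 53.3%. The rises in BAT controls were 1.52 for Abcd2, 1.37 for Ehhadh, 0.92 for Hacl1, 0.69 for Pex11a, 0.55 for Acaa1b and 0.38 for Decr2, of which the last lost its call without day 4 control replicate 1 (adjusted p = 0.0527) or day 8 control replicate 2 (adjusted p = 0.0582). In WAT controls they were 0.97 for Abcd2, 1.24 for Ehhadh, 0.54 for Hacl1, 0.69 for Pex11a, 0.60 for Acaa1b and 0.55 for Decr2. In replicate 3 all 7 had the same direction in BAT controls and 6 of 7 in WAT controls, where Acaa1b gave -0.11.

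Cell type markers moved between the days in the controls as well, and their part in the rises was not tested. The adipocyte markers went from 3928 to 4336 FPKM in sum up to 6058 to 6740 in WAT and from 6806 to 7898 up to 11063 to 11150 in BAT, with 7 of 10 higher in each depot. The preadipocyte and fibroblast markers went from 340 to 372 up to 1277 to 1375 in WAT, where 4 of 5 tested rose, and from 378 to 465 up to 551 to 555 in BAT, where 3 of 5 rose. In WAT controls all 6 tested macrophage markers rose, from 68.6 to 73.5 up to 101 to 117 in sum, while in BAT 1 rose and 1 fell. All 4 tested muscle markers rose in BAT controls, from 10.7 to 16.5 up to 36.7 to 39.4 in sum, and 3 of the 4 fell in WAT controls. Endothelial markers rose for 4 of 5 in WAT controls and 2 of 5 in BAT controls. Of all genes, 27.7% were called higher and 33.2% lower in WAT controls, and 28.7% and 40.4% in BAT controls.

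With EGCG the course over time went by gene, and Decr2 rose in both depots. Of the 7 genes other than Phyh, 4 rose in WAT cells (Acaa1b 0.76, Decr2 0.63, Pex11a 0.39 and Abcd3 0.15), and 2 fell (Ehhadh by 0.35 and Abcd2 by 0.25), against 31.8% of all genes higher and 27.7% lower. In BAT cells 1 rose (Decr2, 0.53) and 2 fell (Abcd2 by 0.46 and Pex11a by 0.20), against 29.7% higher and 28.2% lower. Acaa1b in BAT gave 0.34 ± 0.14, just over the threshold (adjusted p = 0.0524), and was called under quantile normalisation (adjusted p = 0.0468), with a replicate block within replicates 1 and 2 (adjusted p = 0.0483) and with the spread of its own groups alone (adjusted p = 0.0174). Leaving out 1 library ended the calls of Abcd3 (day 4 or day 8 replicate 2), Ehhadh (day 4 replicate 1 or day 8 replicate 2) and Abcd2 (day 4 replicate 2 or day 8 replicate 1) in WAT with EGCG, with adjusted p from 0.0702 to 0.113. It added Hacl1 in WAT without day 4 replicate 1 (0.35, adjusted p = 0.0344). In BAT with EGCG it ended that of Pex11a, which gave -0.12 without day 8 replicate 2 (adjusted p = 0.270), -0.17 without day 4 replicate 2 (adjusted p = 0.160) and -0.23 without day 4 replicate 1 (adjusted p = 0.0619). Over all 14 alternatives the call of Pex11a in BAT with EGCG was lost in 8. In replicate 3, 6 of the 7 had the same direction in BAT, and 2 as deposited and 6 after rescaling in WAT, with Ehhadh the other way in both depots. These changes share libraries with the EGCG comparisons above and are not independent of them.

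**Figure D3:**
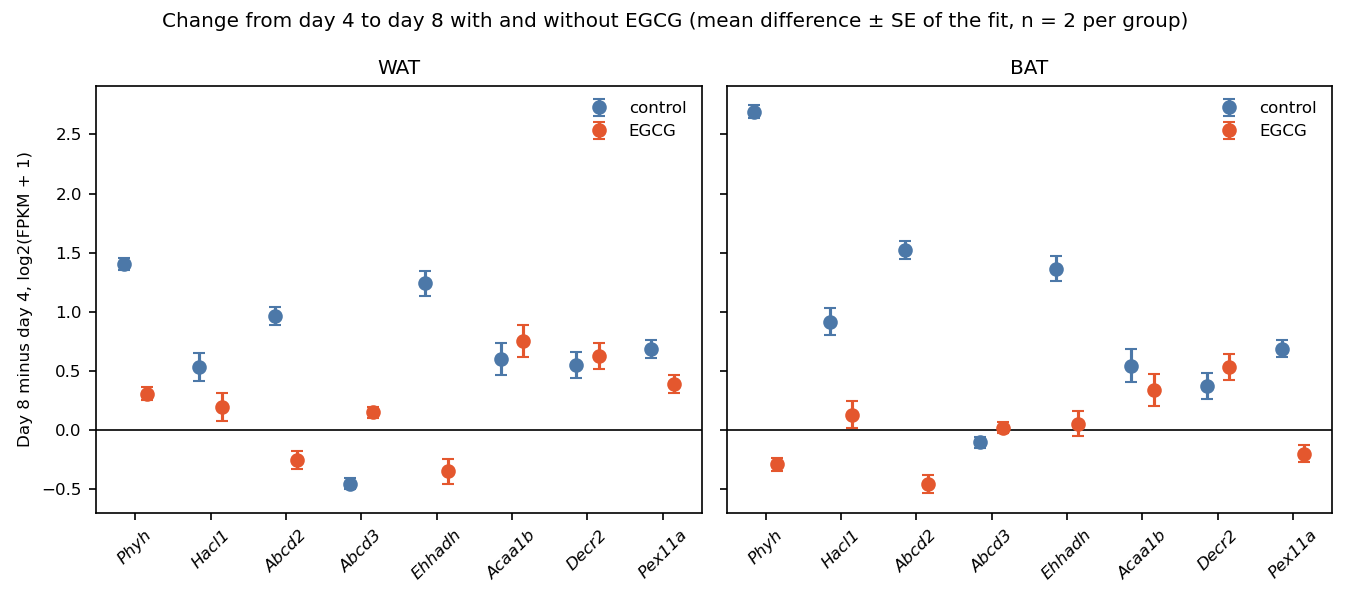
Day 8 minus day 4 on log2(FPKM + 1) for the 8 genes in WAT and BAT cells, for controls (blue) and EGCG (red); points are mean differences of 2 against 2 libraries and bars the SE of the fit. In BAT controls Phyh lies at 2.69 and Abcd2 at 1.52, while with EGCG both lie below 0.

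The depots also differed without EGCG. On day 8 the BAT mean of Phyh was 3.43-fold the WAT mean in controls. Of the other 7 genes the BAT controls were above the WAT controls for 5, Pex11a (1.85-fold), Ehhadh (1.71-fold), Hacl1 (1.52-fold), Abcd3 (1.41-fold) and Abcd2 (1.21-fold), and below for 0, against 31.6% of all genes higher and 22.0% lower. Acaa1b (0.20 ± 0.14, adjusted p = 0.235) and Decr2 (0.22 ± 0.11, adjusted p = 0.116) were not called as fitted, and both were with the 2 tables and a replicate block without the third WAT library with EGCG (adjusted p = 0.0197 and 0.0106). The call of Abcd2 was lost without WAT control replicate 1 (adjusted p = 0.120) or BAT control replicate 1 (adjusted p = 0.103). On day 4 the BAT controls were higher for 5 genes (Pex11a 0.84, Ehhadh 0.55, Phyh 0.45, Decr2 0.39 and Abcd3 0.12) and lower for Abcd2 (-0.30), against 41.4% higher and 14.4% lower. Under median-ratio scaling the all-gene median of this comparison moved from 0.15 to 0.02 and the share higher among called genes from 74.3% to 51.5%, and Abcd3 changed sign to -0.04. Without BAT control replicate 2 the calls of Abcd3 (0.07, adjusted p = 0.294), Decr2 (adjusted p = 0.0581) and Abcd2 (-0.23, adjusted p = 0.0591) were lost, and without WAT control replicate 2 those of Abcd3 (0.07, adjusted p = 0.303) and Decr2 (0.18, adjusted p = 0.105). Over all 14 alternatives the day 4 call of Abcd3 was lost in 7, and its sign changed in 1 more. The day 4 calls of Decr2 and Abcd2 were lost in 6 and 2, and the day 8 call of Abcd2 in 5. In replicate 3 the direction was the same for 7 of 7 genes on day 8 and for 7 of 8 on day 4, where Acaa1b went the other way. The day 8 EGCG means ran the other way for Phyh, Pex11a, Abcd2 and Hacl1, with no test made. They were 10.5 ± 0.2, 3.15 ± 0.32, 2.02 ± 0.06 and 3.39 ± 0.26 FPKM in BAT cells (SD, n = 2). In WAT cells they were 15.6 ± 0.1, 4.58 ± 0.21, 2.99 ± 0.07 and 4.09 ± 0.42. Decr2 gave 16.8 ± 1.8 in BAT and 17.1 ± 0.1 in WAT, with overlapping libraries. In replicate 3 Phyh, Pex11a, Abcd2 and Hacl1 were higher in BAT as deposited and higher in WAT after rescaling.

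The other genes of the organelle were taken from lists by function. Of 20 further genes of peroxisomal fatty acid oxidation, 17 passed the filter. For the depot difference on day 8, 13 of them were lower in BAT and 0 higher (median -0.53, all genes 0.01). Of all genes tested, 19.7% were called lower and 19.4% higher for this difference. EGCG lowered 15 of the 17 in BAT and 7 in WAT, against 26.1% and 18.9% of all genes. Scp2, which encodes a thiolase and a sterol carrier protein, went from 187 to 48.3 FPKM in BAT and from 111 to 56.4 in WAT, a difference of -0.96 ± 0.10 (adjusted p = 3.05e-05). Ech1, a dienoyl-CoA isomerase found in both organelles, went from 184 to 34.6 in BAT and from 91.8 to 43.2 in WAT, a difference of -1.31 ± 0.08 (adjusted p = 4.91e-07).

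Acaa1a, the main thiolase and the paralog of Acaa1b, went from 98.8 to 43.9 FPKM in BAT and from 59.3 to 53.6 in WAT, a difference of -1.01 ± 0.10 (adjusted p = 1.81e-05). Hsd17b4, the second bifunctional enzyme of the pathway beside Ehhadh, went from 63.1 to 35.5 in BAT and from 38.0 to 34.9 in WAT, a difference of -0.69 ± 0.11 (adjusted p = 0.000370). In Scp2, Ech1, Acaa1a and Hsd17b4 alike, BAT cells with EGCG came down to about the WAT level with EGCG or below it.

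**Figure D4:**
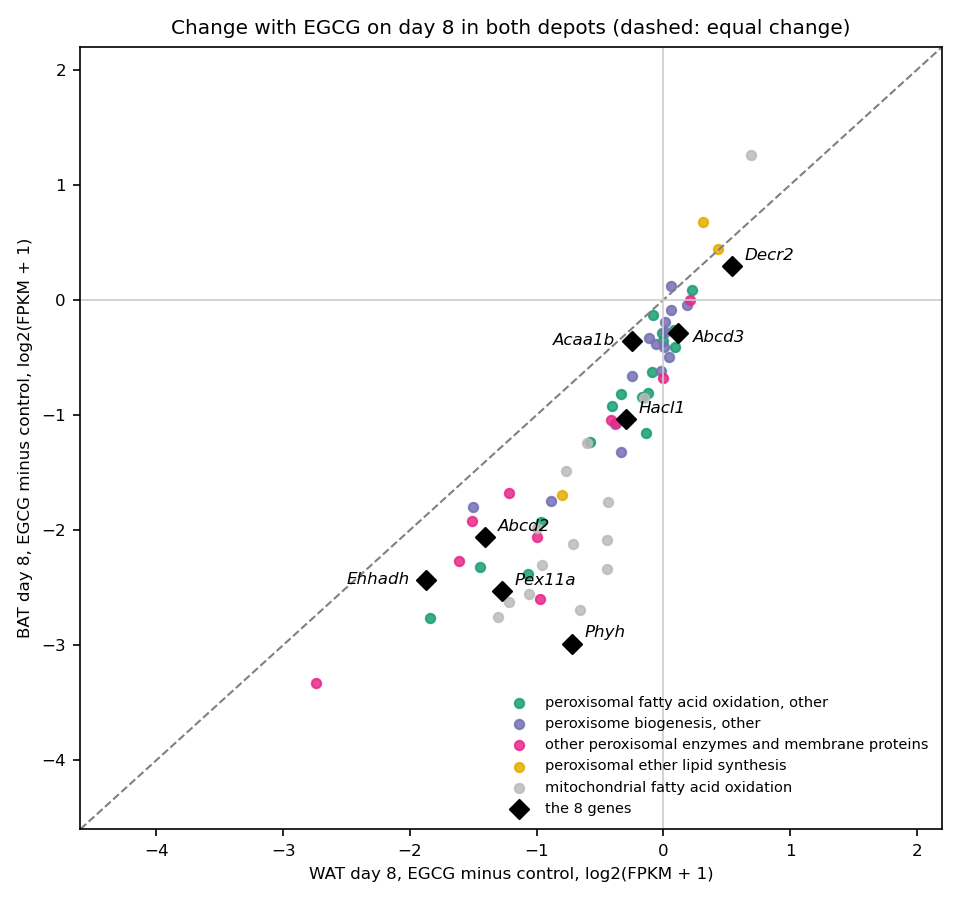
EGCG minus control on day 8 on log2(FPKM + 1), WAT on the horizontal and BAT on the vertical axis, 1 point a gene, for the 8 genes (black), the other peroxisomal lists and mitochondrial fatty acid oxidation (grey). Points below the dashed line changed to a lower value in BAT than in WAT; Phyh, at -0.72 and -2.99, lies farthest below it of the 8.

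The peroxins, the proteins that import matrix enzymes and build the organelle, were also lower more often than higher. Of 15 tested, 10 were lower in BAT for the depot difference and 0 higher (median -0.33), against 19.7% and 19.4% of all genes. Pex6 led the 4 most abundant with -0.99 ± 0.07 (adjusted p = 1.34e-06), followed by Pex5, the import receptor, with -0.41 ± 0.06 (adjusted p = 0.000264) and Pex19 with -0.22 ± 0.07 (adjusted p = 0.0205), and Pex16 gave -0.30 ± 0.16 (adjusted p = 0.177). Of 12 other peroxisomal enzymes and membrane proteins, 10 were tested, 8 were lower and 0 higher (median -0.65). Among them catalase (Cat) gave -0.46 ± 0.10 (adjusted p = 0.00468), Prdx5 -0.67 ± 0.07 (adjusted p = 2.13e-05), Ephx2 -0.59 ± 0.15 (adjusted p = 0.00872) and Lonp2 -0.64 ± 0.08 (adjusted p = 7.61e-05).

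Ether lipid synthesis, the anabolic arm of the peroxisome, did not go one way. Of its 4 genes 3 were tested, 1 was lower in BAT for the depot difference (Gnpat, -0.90 ± 0.09, adjusted p = 1.54e-05), 1 was higher (Far1, 0.36 ± 0.09, adjusted p = 0.00842), and Agps gave 0.01 ± 0.08 (adjusted p = 0.917). Far1 and Agps rose with EGCG in both depots on day 8. With all lists and the 8 genes together, 59 peroxisomal genes were listed and 52 counted without Phyh. Of these, 37 were lower and 1 higher for the depot difference on day 8, against 19.7% and 19.4% of all genes.

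**Figure D5:**
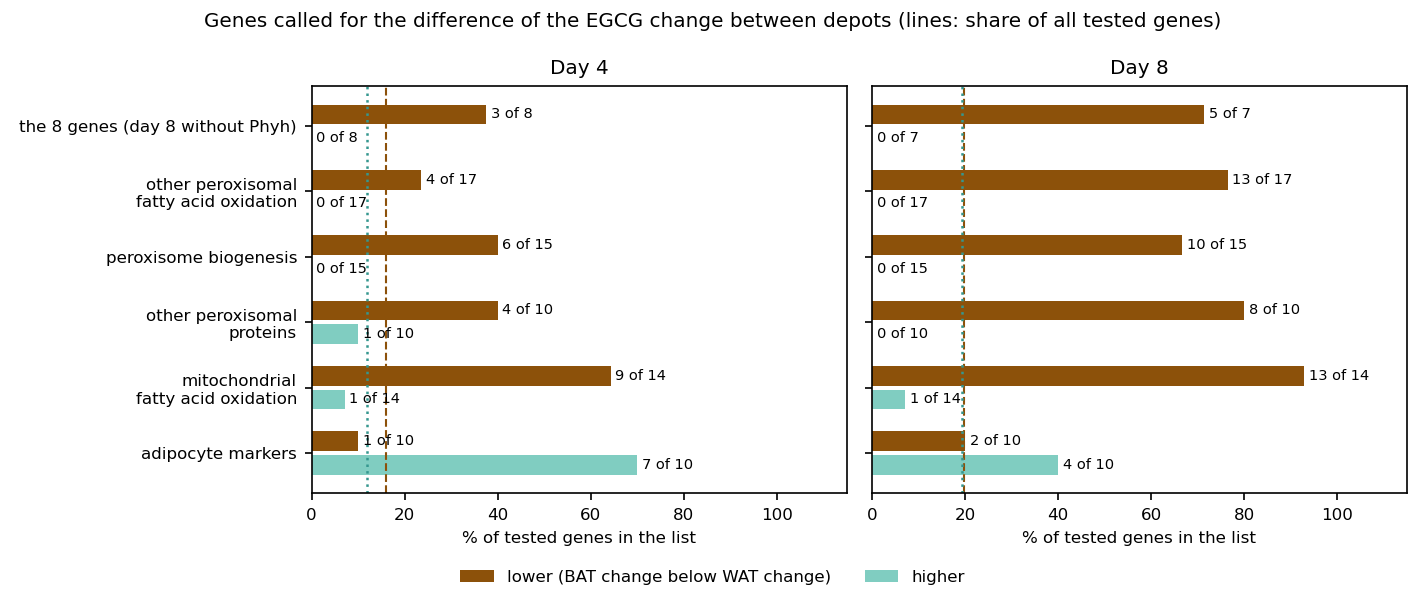
Share of the tested genes of each list (horizontal axis, %) called for the difference of the EGCG change between depots, lower in BAT (brown) or higher (teal), on day 4 and day 8, with counts at the bars. The dashed and dotted lines are the shares of all tested genes called lower and higher (19.7% and 19.4% on day 8). On day 8 the brown bars of the peroxisomal and mitochondrial lists shown lie above the dashed line. That of the adipocyte markers lies close to it. Ether lipid synthesis is not shown.

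Regulators and a neighbouring pathway were looked at in the same way. Of 6 nuclear receptors and coactivators known to act on these genes, 5 were lower in BAT for the day 8 depot difference and 0 higher. Of all genes tested, 19.7% were lower and 19.4% higher. Pparg, the master regulator of adipogenesis, fell from 138 to 11.2 FPKM in BAT and from 60.2 to 8.56 in WAT, a difference of -0.84 ± 0.15 (adjusted p = 0.00103). Ppard gave -0.51 ± 0.09 (adjusted p = 0.00134), Ppargc1b -1.42 ± 0.15 (adjusted p = 2.79e-05), and Rxra 0.11 ± 0.09 (adjusted p = 0.352). Of 14 tested genes of mitochondrial fatty acid oxidation, 13 were lower and 1 higher, with a median of -1.38, so that the depot difference was not limited to peroxisomes. Acadm, the medium-chain dehydrogenase, went from 228 to 32.8 FPKM in BAT and from 74.0 to 29.0 in WAT, a difference of -1.46 ± 0.17 (adjusted p = 5.24e-05).

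Cell type markers moved with EGCG too, and their part in the results was not tested. All 10 adipocyte markers fell in both depots on day 8, with medians of -4.40 in BAT and -4.76 in WAT, and their summed level went from 11063 to 11150 FPKM down to 505 to 518 in BAT and from 6058 to 6740 down to 664 to 727 in WAT. For the depot difference 2 of the 10 were lower and 4 higher (median 0.12), against 19.7% and 19.4% of all genes. The 7 macrophage markers summed to 104 to 107 FPKM in BAT controls and 57.5 to 58.3 with EGCG, and to 101 to 117 and 55.7 to 58.9 in WAT. The 5 endothelial markers summed to 16.01 to 16.41 and 33.0 to 33.97 in BAT, and to 20.2 to 21.6 and 28.6 to 28.9 in WAT. The 6 preadipocyte and fibroblast markers summed to 551 to 555 and 404 to 405 in BAT, and to 1277 to 1375 and 819 to 829 in WAT. The 6 skeletal muscle markers summed to 36.7 to 39.4 and 27.6 to 29.4 in BAT, and to 26.6 to 30.0 and 29.7 to 36.0 in WAT. The 4 brown identity genes summed to 39.6 to 41.7 and 36.3 to 37.5 in BAT, and to 16.8 to 18.2 and 15.5 to 15.6 in WAT. The 4 white identity genes summed to 17.8 to 18.7 in BAT controls and 40.1 to 40.2 with EGCG. There 3 of the 4 were called higher, against 46.5% of all genes. In WAT they summed to 46.3 to 52.5 and 63.7 to 64.1, and all 4 were called higher, against 44.7%.

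On day 4 the markers moved as well, and not all in the same direction as on day 8. Of all genes on that day, 34.4% were called higher and 19.3% lower in WAT, and 27.9% and 20.6% in BAT. All 10 adipocyte markers fell in both depots, from 6806 to 7898 down to 1660 to 1728 FPKM in sum in BAT and from 3928 to 4336 down to 1138 to 1187 in WAT. The macrophage markers went up, from 154 to 164 to 346 to 386 in BAT and from 68.6 to 73.5 to 183 to 187 in WAT, with 4 and 5 of 6 tested called higher. The endothelial markers went from 11.03 to 13.17 up to 35.1 to 37.9 in BAT and from 13.9 to 15.2 up to 33.6 to 34.8 in WAT, with 5 and 4 of 5 called higher. Of the white identity genes 0 were called in BAT and all 4 fell in WAT. The preadipocyte and fibroblast markers went from 378 to 465 up to 510 to 563 in BAT. In WAT they went from 340 to 372 up to 546 to 552. The brown identity genes went from 57.4 to 58.1 down to 43.1 to 43.7 in BAT. In WAT they went from 32.7 to 34.5 down to 17.5 to 19.7. The muscle markers summed to 10.7 to 16.5 in BAT controls and 14.6 to 16.7 with EGCG. In WAT these sums were 45.7 to 47.5 and 73.1 to 78.3.

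Over the 16 libraries of the first table the 8 genes fell into those that rose and fell together and those that did not, as a description across libraries that share groups. Pearson's r was 0.94 between Phyh and Hacl1, 0.93 between Ehhadh and Pex11a and 0.91 between Ehhadh and Abcd2. With Phyh it was 0.84 for Ehhadh, 0.84 for Abcd2, 0.74 for Pex11a and 0.68 for Acaa1b, against 0.19 for Abcd3 and 0.24 for Decr2. Among all genes tested, Cox7a1, a mitochondrial respiratory subunit gene of muscle and brown fat, was the closest to Phyh (r = 0.99) and also to Hacl1 (r = 0.97). The closest to Pex11a was Nr1h3 (r = 0.98), to Ehhadh Aldh3b2 (r = 0.98), to Abcd2 Acsf2 (r = 0.98), to Abcd3 Ptms (r = 0.94), to Decr2 Rpgr (r = 0.96) and to Acaa1b Fads3 (r = 0.95).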

How the data were processed

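RNA of 24 libraries was sequenced. The authors deposited FPKM values per gene in 2 tables scaled separately, replicates 1 and 2 in one and replicate 3 in the other, each of 37310 genes. Per the submitters' processing notes, FastQC 0.11.9, HISAT2 2.2.0, HTSeq 0.11 and mm9 were used, and use of strand is not given in the sources used here. Symbols were read from GENCODE vM1, and all 122 genes of the lists were matched, 2 of them by a synonym. FPKM times gene length gave whole reads (tolerance 0.01) for 100% of the values checked, which were those above 0 at lower read counts. Values with many reads were rounded without this check. The reads were used for depth and an alternative test. Depth was 39452696 to 52893848 reads in replicates 1 and 2 and 16392420 to 41675643 in replicate 3.

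Genes with an FPKM of at least 1 in at least 2 of the 16 libraries of the first table (14095 genes) were tested on log2(FPKM + 1) with limma 3.58.1 in R 4.3.3, with 1 mean for each of the 8 groups, a shared spread and Benjamini-Hochberg adjustment within each comparison at 0.05. The SD of the log2 ratio between replicates 1 and 2 was 0.336 in WAT day 8 controls and 0.195 to 0.234 elsewhere. The shared spread may thus understate the SE where those controls are compared. With the spread of the compared groups alone, 5101 genes were called between depots in day 8 controls. As fitted, 4460 were called higher and 3095 lower there. Replicate 3 was given by value and direction only. The fit was tested on simulated data. The genes and lists were chosen with earlier results of these data known, so lists carry counts and medians and no set test. From each list the 4 genes with the highest mean FPKM were named, together with Acaa1a and Hsd17b4, except for a result that is not reported here. The regulators, the mitochondrial list and the markers are given by fewer examples. Alternatives were the pseudocount, the filter on low values, median-ratio scaling, quantile normalisation, the replicate number as a block, both tables together, the spread of the compared groups alone, limma's voom on the recovered reads, and leaving out each of the 16 libraries.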

Additional observations from a re-analysis of the deposited data

Results flagged for a closer look

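In 8 cases a difference between depots stood out, because the change with EGCG in BAT differed from the change with EGCG in WAT by a test of the difference itself (limma, adjusted over all genes tested). On day 8 they were -1.26 for Pex11a, -0.74 for Hacl1, -0.65 for Abcd2, -0.56 for Ehhadh and -0.40 for Abcd3 on the log2 scale, and each of these 5 was of the same sign in replicate 3 once the third WAT library with EGCG was rescaled. On day 4 they were -0.84 for Ehhadh, -0.67 for Pex11a and -0.39 for Phyh, also of the same sign in replicate 3. Such a call was common: of all genes tested, 19.7% were called lower and 19.4% higher for the depot difference on day 8. On day 4 these shares were 16.1% and 12.0%. As fitted, the changes of Pex11a and Ehhadh differed between depots on both days. For Ehhadh on day 8 the call depended on the settings. It was lost with the smaller pseudocount (-0.53, adjusted p = 0.0967) and with voom on recovered reads (-0.54, adjusted p = 0.127).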

How the results depend on the processing

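The 96 log2 changes of the 8 genes were recomputed with other settings, which gave 1396 values. The direction and the side of the threshold stayed in 1229, which for values of Phyh without a test meant a move within the SE of the fit. With the direction kept, a call was lost in 98 and gained in 18. Another 25 changed sign, some of them with a call lost as well, and 26 values of Phyh without a test moved by more than the SE.

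Leaving out 1 library accounted for 36 of the losses, over 448 values. The single setting with the most was both tables fitted together with a replicate block (29 of 96 values), which includes the third WAT library with EGCG on day 8 as deposited. The counts of called genes were then 1 for EGCG in WAT on day 4, 4 for EGCG in BAT on day 8, 1 for the depot difference on day 4, 1 for that on day 8, 4 for the time change in WAT controls, 2 for that in WAT with EGCG, and 2 on day 4 and 3 on day 8 for the depots in controls. The same setting called 2963, 6526, 586, 1897, 3943, 5454, 2395 and 2722 of the 14095 genes tested, in the same order of comparisons. As fitted, the depot difference was called lower for 2270 genes and higher for 1689 on day 4. On day 8 it was called lower for 2782 and higher for 2738. Without the third WAT library with EGCG on day 8, the same replicate block left 5 calls for the depot difference on day 8, and 6006 over all genes. Over the 96 values that fit lost 1 call and gained 6, and 2 changed sign. The cause was not tested further. The replicate numbers showed no strong shared effect, as the correlation of same-numbered deviations lay between -0.079 and 0.081 over 28 pairs of groups. Whether libraries of the same number shared an animal or a culture is not given, and these correlations cannot settle it. A replicate block within replicates 1 and 2 gave 5 calls for the depot difference on day 8 and 7 for EGCG in BAT on day 8. Over all genes it called 5395 and 10188.

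Changes of sign with both tables and the block were -0.31 for Abcd3 with EGCG in WAT on day 8, -0.0040 (also without the third library) for Abcd3 in the depot difference on day 4, 0.023 for Abcd3 and 0.17 for Decr2 in that on day 8, -0.013 for Phyh, -0.29 for Abcd3 and -0.14 for Hacl1 from day 4 to day 8 in WAT with EGCG, and -0.049 (also without the third library) for Ehhadh in BAT with EGCG. Under median-ratio scaling they were -0.065 for Hacl1 with EGCG in WAT on day 4, -0.076 for Abcd3 on day 8, 0.046 for Abcd3 over time in BAT controls and -0.037 for Abcd3 between depots on day 4. Under quantile normalisation they were -0.068 for Hacl1 with EGCG in WAT on day 4, -0.049 for Abcd3 on day 8 and -0.033 for Hacl1 between depots on day 4.

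With each library left out in turn, the values that changed sign ranged from -0.11 to 0.20 for Hacl1 with EGCG in WAT on day 4, from -0.055 to 0.041 for Phyh in BAT on day 4, from -0.27 to 0.045 for Acaa1b in the depot difference on day 8, and, over time in BAT with EGCG, from -0.017 to 0.13 for Ehhadh and from -0.00064 to 0.039 for Abcd3. None of these had been called as fitted. The count for the depots on day 4 in controls ranged from 3 (without BAT control replicate 2) to 7, and that for the depot difference on day 8 was 5 throughout. As fitted, 41.4% of all genes were called higher and 14.4% lower in BAT than in WAT for the day 4 controls. For the depot difference on day 8 the shares were 19.4% and 19.7%. A filter at an FPKM of 5 removed Acaa1b. With 2 libraries a group the weak genes, Acaa1b first, carry the widest intervals.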
